A study of Mus musculus with 24 samples.

Results

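The T and NK cell genes described here are 10 lymphocyte genes, Cd3d, Cd3e, Cd3g, Cd28, Gzma, Gzmb, Prf1, Nkg7, Klrd1 and Klrb1b. They were chosen by symbol from the 24046 genes of a count table of mouse MLL-AF9 leukaemia. The table holds 24 poly(A) RNA libraries in 8 groups of 3, prepared from the marrow of secondary transplant recipients that had become moribund. All the cells carried MLL-AF9, a fusion oncogene that drives acute myeloid leukaemia, together with a Cre recombinase. Arid1b and Arid2, the floxed genes, encode subunits of SWI/SNF chromatin remodelling complexes.

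The groups form 4 sets, each of 3 floxed and 3 control libraries. In the VavCre Arid1b set, Arid1b fl/fl VavCre+ leukaemias were set against Arid1b +/+ VavCre+ leukaemias. In the VavCre Arid2 set, Arid2 fl/fl VavCre+ leukaemias were set against VavCre+ controls titled ARID2-WT. VavCre is active in blood cells from early in development, before the cells became leukaemic. The other sets carried MxCre, whose promoter responds to interferon and is induced by pIpC, given in floxed and control recipients alike as 3 injections of 12.5 µg per g body weight within a week, starting 21 days after transplantation. The MxCre sets are called here by their titles, A2 and A1b, because their titles and their cell type descriptions name different Arid genes (the set titled A2 is described as Arid1b, and the set titled A1b as Arid2). The labels give no sorting step and do not say whether libraries of a group came from separate leukaemias, so p-values measure the spread between these libraries, which may be technical. In bulk marrow, fewer cells of a type and less RNA per cell cannot be told apart.

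CD3 delta, epsilon and gamma (Cd3d, Cd3e, Cd3g) are the invariant chains that carry the T cell receptor to the surface and pass on its signal, and CD28 gives the second, costimulatory signal on binding CD80 or CD86. Killer T cells and NK cells store perforin (Prf1), which opens the target membrane, and the granzymes (Gzma, Gzmb), proteases that enter through it, in granules whose release Nkg7 promotes. Klrd1 encodes CD94, which pairs with NKG2 proteins into receptors for a class I-like molecule, and Klrb1b encodes an inhibitory receptor of the NKR-P1 family.

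The promoters of the killing genes and of Cd3e are shown because several pairs of them were correlated over the libraries, and that of Klrb1b because it and Gzmb were called in opposite directions. Promoter sequences from 250 bases before to 50 bases from the gene's start came from RefSeq (GRCm38.p6), which had an entry for 8 of the 10 genes, not for Cd28 or Klrd1. The capitals mark TGTGGT, the core letters of the RUNX motif, or ACCACA, the same letters on the other strand; RUNX factors are regulators of lymphoid and myeloid genes. Sequences run 5′ to 3′ on the gene's strand.
Gzma, chr13:113100932-113101231, minus strand: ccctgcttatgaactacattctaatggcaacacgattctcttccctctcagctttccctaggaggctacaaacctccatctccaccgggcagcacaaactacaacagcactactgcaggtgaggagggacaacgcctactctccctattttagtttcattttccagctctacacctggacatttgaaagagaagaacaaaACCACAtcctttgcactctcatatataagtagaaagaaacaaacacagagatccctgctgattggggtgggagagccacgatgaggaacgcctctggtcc
Gzmb, chr14:56262285-56262584, minus strand: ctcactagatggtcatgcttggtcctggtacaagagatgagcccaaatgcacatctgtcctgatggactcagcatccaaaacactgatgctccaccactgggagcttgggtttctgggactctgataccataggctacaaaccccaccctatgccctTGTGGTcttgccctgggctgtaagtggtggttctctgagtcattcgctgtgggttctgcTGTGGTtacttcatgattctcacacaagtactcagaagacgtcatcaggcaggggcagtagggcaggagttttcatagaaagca
Prf1, chr10:61297586-61297885, plus strand: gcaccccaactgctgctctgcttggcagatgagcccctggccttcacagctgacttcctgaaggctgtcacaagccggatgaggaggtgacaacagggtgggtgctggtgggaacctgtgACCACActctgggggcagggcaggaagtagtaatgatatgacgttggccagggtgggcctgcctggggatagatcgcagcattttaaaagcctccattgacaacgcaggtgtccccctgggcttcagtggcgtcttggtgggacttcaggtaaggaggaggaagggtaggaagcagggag
Nkg7, chr7:43436888-43437187, plus strand: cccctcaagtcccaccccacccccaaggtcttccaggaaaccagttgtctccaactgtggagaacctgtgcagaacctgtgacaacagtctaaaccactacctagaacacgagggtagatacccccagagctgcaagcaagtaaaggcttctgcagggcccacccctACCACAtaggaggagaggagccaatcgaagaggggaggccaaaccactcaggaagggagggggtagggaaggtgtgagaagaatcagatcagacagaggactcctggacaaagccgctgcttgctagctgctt
Cd3e, chr9:45009562-45009861, minus strand: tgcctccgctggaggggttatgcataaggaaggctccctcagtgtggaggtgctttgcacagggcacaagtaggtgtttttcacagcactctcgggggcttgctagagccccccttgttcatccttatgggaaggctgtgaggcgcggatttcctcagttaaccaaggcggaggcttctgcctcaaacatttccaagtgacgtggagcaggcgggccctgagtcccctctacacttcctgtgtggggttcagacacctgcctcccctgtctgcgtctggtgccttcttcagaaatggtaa
Klrb1b, chr6:128826266-128826565, minus strand: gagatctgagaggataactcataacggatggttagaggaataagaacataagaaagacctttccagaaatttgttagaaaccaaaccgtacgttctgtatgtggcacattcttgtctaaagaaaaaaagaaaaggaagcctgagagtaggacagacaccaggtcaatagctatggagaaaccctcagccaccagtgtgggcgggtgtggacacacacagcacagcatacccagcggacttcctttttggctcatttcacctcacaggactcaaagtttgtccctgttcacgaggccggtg
The RUNX letters were found in the Gzma, Gzmb, Prf1 and Nkg7 windows, 4 of the 8, against 16.8% of the 32851 promoters in the RefSeq table. Gzmb held them at 93 and 34 bases before its RefSeq start. The Gzmb window lies wholly upstream of the gene coordinates given further below, so these distances do not count from the start given there. The E-box letters CAGNTG, read on both strands, were in 7 of the 8 windows and in 51.4% of all promoters, and Klrb1b was the window without them. The AP-1 letters TGANTCA were in the Gzmb window (7.81% of all promoters), and the IRF motif, GAAA repeated after any 2 bases, was in the Gzma window (3.44%). These matches describe letters in a window, and a window without a match says nothing of the factor.

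Total counts ran over 12069153 to 38315410 per library, and libraries of a group correlated at r = 0.900 to 0.987 over log2 CPM (each count as a share of its library's TMM-scaled total). Arid1b had 140 to 184 CPM in VavCre Arid1b floxed libraries and 186 to 367 CPM in their controls; Arid2 had 197 to 290 CPM in VavCre Arid2 floxed libraries and 218 to 443 CPM in their controls. The other gene of each VavCre set was read too. Arid2 had 165 to 271 CPM in VavCre Arid1b floxed libraries and 260 to 402 CPM in their controls. Arid1b had 188 to 238 CPM in VavCre Arid2 floxed libraries and 187 to 412 CPM in their controls. In the MxCre set titled A2, Arid2 had 245 to 348 CPM in floxed and 189 to 547 CPM in control libraries. Arid1b there had 169 to 183 and 141 to 442 CPM. In the set titled A1b, Arid1b had 55.7 to 262 CPM in floxed and 155 to 193 CPM in control libraries. Arid2 there had 121 to 404 and 198 to 287 CPM. Gene totals do not show whether the floxed exons were lost. Expression of the Y-linked gene Kdm5d above 10 CPM was found in 0 of 3 floxed and 3 of 3 control libraries of the VavCre Arid1b set, and in 3 of 3 floxed and 0 of 3 control libraries of the set titled A2, so a Y-linked difference and genotype cannot be told apart in those sets. In the VavCre Arid2 set 1 floxed and 0 control libraries passed that level, and in the set titled A1b 1 floxed and 2 control libraries did. Floxed library 3 of the set titled A2 stood apart, with 16.6% of its counts in 10 genes and a summed erythroid level of 1156 CPM, and floxed library 2 of the set titled A1b had 662 CPM of erythroid genes. Control library 3 of the VavCre Arid1b set had 15752 CPM of neutrophil granule genes, against 2733 and 4383 CPM in the other controls. These are the 3 libraries that stood apart, and no fixed threshold set them. A floxed library of the VavCre Arid2 set with 12661 CPM of neutrophil granule genes, against 3334 and 3961 CPM in the others, was kept.

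Most of the 10 genes were low. Per kilobase of exon, Nkg7 averaged 16.1 CPM over the 24 libraries, at percentile 81.9 of 20741 genes. Cd28 averaged 2.82 CPM per kilobase, Gzmb 1.56, Klrd1 1.44, Gzma 0.934, Cd3d 0.661, Cd3g 0.469, Klrb1b 0.459, Cd3e 0.352 and Prf1 0.288, the last at percentile 40.2. All 10 passed the filter on low counts among 14099 genes tested. A gene was called at an adjusted p under 0.05 in edgeR's quasi-likelihood test with Benjamini-Hochberg adjustment over all genes tested.

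**Figure D1:**
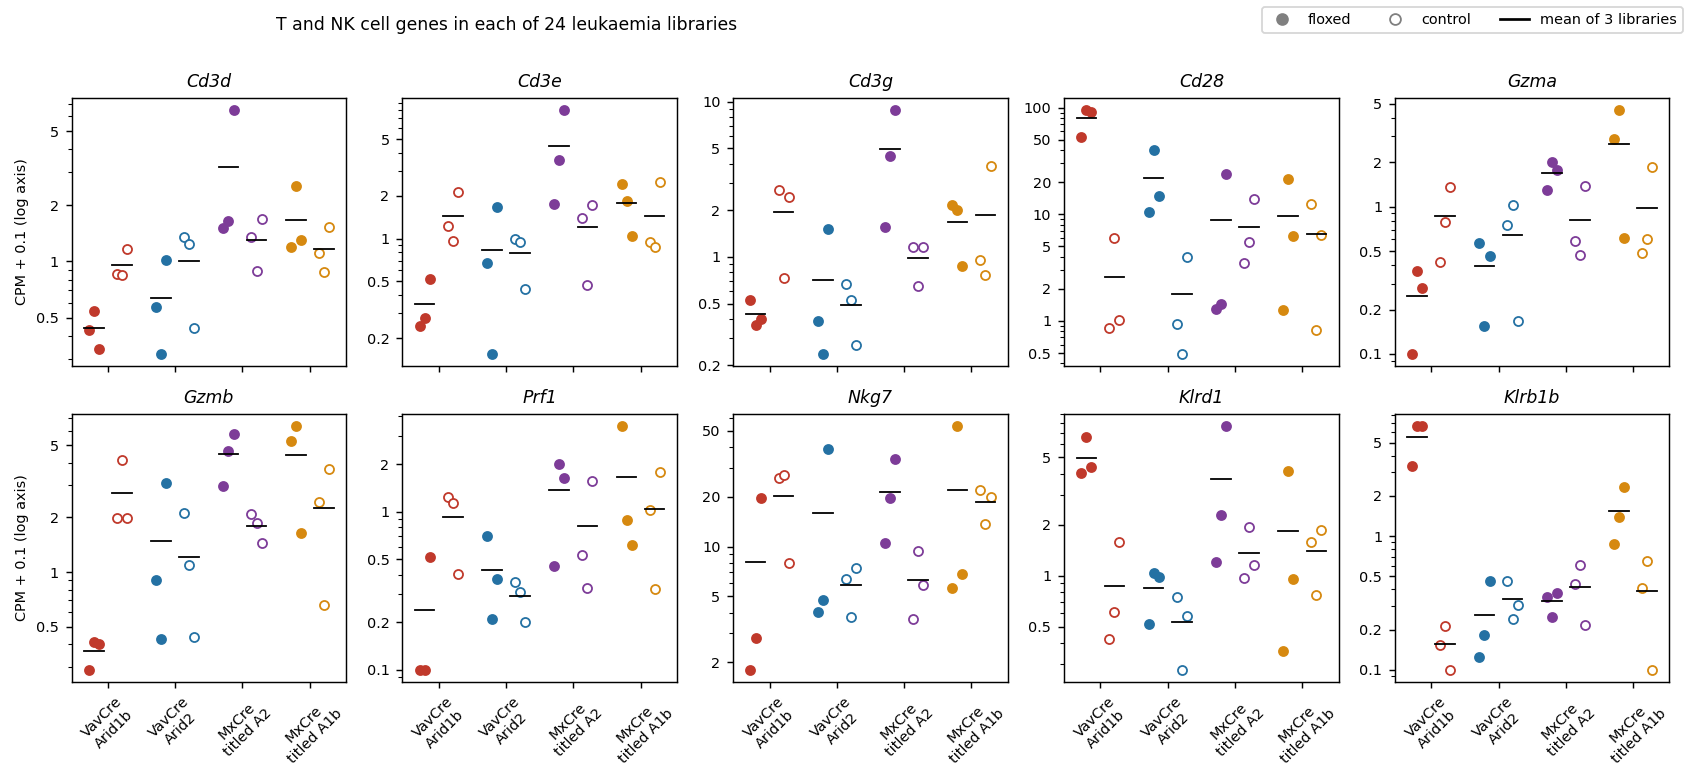
CPM of each of the 10 genes in the 24 libraries, on a logarithmic axis with a separate range for each gene; each point is a library, in floxed and control columns for each of the 4 sets. Cd28 and Klrb1b are higher in all 3 VavCre Arid1b floxed libraries than in any other library.

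The members called in the VavCre Arid1b set differed in direction. Klrb1b and Cd28 rose and Gzmb fell in floxed leukaemias; the other 7 did not pass the test. This made 3 of 10 called, where 6.57% of all genes tested were called, 3.52% higher and 3.05% lower in floxed leukaemias. In CPM, 3 of the 10 had every floxed library above every control (Cd28, Klrd1, Klrb1b) and 5 had every floxed library below (Cd3d, Cd3e, Cd3g, Gzma, Gzmb), against 16.3% and 16.1% of all genes. The median log2 fold change of the 10 was -1.83, and that of all genes -0.06. The members, and the lists further below, were chosen with earlier results of these data known. Setting their shares beside those of all genes, here and below, is therefore a description and not a test.

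The CD3 chains lie side by side on chromosome 9 in GRCm38 (GENCODE M21). Cd3g occupies chr9:44969572-44980431 on the minus strand, Cd3d chr9:44981786-44987339 on the plus strand and Cd3e chr9:44998740-45009627 on the minus strand, with gaps of 1354 and 11400 bases between them. Exons of Cd3e overlap an annotated antisense gene, Gm48719, and no strand setting of the counting is stated in the labels, so its count is uncertain to that extent.

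Cd3e in the VavCre Arid1b set had 0.142, 0.177 and 0.420 CPM in floxed libraries 1, 3 and 4, against 1.13, 0.857 and 2.03 CPM in control libraries 1, 2 and 3. The floxed values rested on 3, 4 and 7 counts, all below the controls. The log2 fold change was -2.45 ± 0.91 (SE, n = 3 each; edgeR adjusted p = 0.109). Cd3g averaged 0.330 ± 0.084 CPM in floxed and 1.85 ± 1.06 CPM in control libraries (SD), a log2 fold change of -2.46 (adjusted p = 0.0987, and 0.0433 by DESeq2). Cd3d averaged 0.338 ± 0.102 CPM in floxed and 0.854 ± 0.183 CPM in control libraries (adjusted p = 0.236).

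The CD3 chains overlapped between the groups of the VavCre Arid2 set. Cd3e had 0.573, 0.0548 and 1.56 CPM in floxed libraries 1, 2 and 3, against 0.886, 0.851 and 0.339 CPM in controls. The floxed libraries held both the lowest and the highest value of the set, and the log2 fold change was 0.06 ± 0.83 (adjusted p = 0.976).

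In the MxCre set titled A2 the CD3 chains had their highest levels, with a wide spread. Cd3e had 1.66, 3.50 and 7.90 CPM in floxed libraries 1, 2 and 3, against 1.30, 0.369 and 1.64 CPM in controls. Cd3g had 1.46, 4.35 and 8.73 CPM in floxed libraries, against 1.06, 0.553 and 1.05 CPM in controls. For both genes every floxed library was above every control, and library 3, which stood apart, was highest. The log2 fold changes were 1.98 ± 0.84 for Cd3e (adjusted p = 0.411) and 2.44 ± 0.86 for Cd3g (adjusted p = 0.316), and 1.23 and 1.71 without that library. Cd3d reached 6.38 CPM in it, against 1.41 and 1.55 CPM in the other floxed libraries and 0.784 to 1.58 CPM in controls.

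In the MxCre set titled A1b the chains overlapped, with Cd3e at 0.940 to 2.33 CPM in floxed and 0.780 to 2.4 CPM in control libraries. Cd3g had 0.769 to 2.08 CPM in floxed and 0.669 to 3.76 CPM in control libraries there, with control library 3 the highest.

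Cd28 (chr1:60716800-60773359, plus strand) showed another pattern. In the VavCre Arid1b set it had 52.9, 94.6 and 91.7 CPM in floxed libraries 1, 3 and 4, against 0.754, 5.83 and 0.913 CPM in control libraries 1, 2 and 3. Each floxed library was above every other library of the series, the next being 39.7 CPM. The log2 fold change was 5.0 ± 1.41 (adjusted p = 0.0409), higher in 3 of 3 floxed libraries. The call was lost when a control other than library 2 or any floxed library was left out (log2 fold change 4.57 to 5.23, adjusted p 0.0505 to 0.148); over all the other settings the adjusted p ran over 0.00031 to 0.133.

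Cd28 in the VavCre Arid2 set had 10.4, 39.7 and 14.8 CPM in floxed libraries, against 0.834, 0.390 and 3.87 CPM in controls. The groups did not overlap, and the log2 fold change of 3.67 ± 1.32 did not pass the test (adjusted p = 0.142). It passed with DESeq2 (adjusted p = 0.0308) and with limma voom (0.00776), and with edgeR when the 3 libraries that stood apart in other sets were left out (0.0469); the range over the settings other than leaving out a single library was 0.00776 to 0.285. The VavCre sets did not differ in this fold change beyond its error (difference 1.33, 95% interval -2.27 to 4.93, adjusted p = 0.871), an interval wide enough to hold large differences either way.

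In the MxCre sets the floxed and control values of Cd28 overlapped. It had 1.21, 1.33 and 23.8 CPM in floxed libraries of the set titled A2, against 3.38, 5.44 and 13.9 CPM in controls. Cd28 in the set titled A1b had 1.17, 21.4 and 6.16 CPM in floxed libraries, against 12.2, 0.724 and 6.23 CPM in controls. In each set the highest floxed value was in the library with abundant erythroid transcripts. Without the 3 libraries that stood apart the log2 fold changes turned to -2.56 and -0.80, from fits whose values with all libraries were 0.20 and 0.59. Ordered by mean, Cd28 was highest in VavCre Arid1b floxed (79.8 ± 23.3 CPM, SD, n = 3) and VavCre Arid2 floxed libraries (21.6 ± 15.8), the 4 MxCre groups lay between 6.40 and 9.59 CPM with overlapping libraries, and the VavCre controls had 2.5 ± 2.88 (Arid1b set) and 1.70 ± 1.89 CPM (Arid2 set).

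The genes next to Cd28 on chromosome 1 encode its relatives Ctla4, an inhibitory receptor for the same ligands, and Icos, a costimulatory receptor. Both averaged under 1 CPM in the VavCre Arid1b set. Ctla4 had 0.146 CPM in floxed and 0.138 CPM in control libraries, and Icos 0.583 and 0.675 CPM in floxed and control libraries. On the other side, Raph1, an actin regulator, averaged 90.8 CPM in floxed and 21.8 CPM in control libraries.

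The killing genes had low levels, apart from Nkg7. Gzmb (chr14:56258838-56262260, minus strand) had 0.189, 0.310 and 0.300 CPM in VavCre Arid1b floxed libraries 1, 3 and 4, against 1.88, 4.06 and 1.88 CPM in control libraries 1, 2 and 3. All 3 floxed libraries, with 4, 7 and 5 counts, were below the controls, with 35 to 71 counts. Gzmb fell by 3.26 ± 0.85 on the log2 scale (adjusted p = 0.0300). The direction was the same without each library in turn (-3.45 to -2.80), but none of those 6 fits called it (adjusted p 0.0505 to 0.114).

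Gzma (chr13:113093825-113100981, minus strand) had 0, 0.266 and 0.180 CPM in VavCre Arid1b floxed libraries, against 0.323, 0.686 and 1.27 CPM in controls, and the count of 0 allows up to 0.142 CPM. Prf1 (chr10:61297833-61304680, plus strand) had no count in floxed libraries 1 and 3, which allows up to 0.142 and 0.133 CPM (3 counts, counting error only), and 0.420 CPM in floxed library 4, against 1.13, 1.03 and 0.304 CPM in controls. Gzma did not overlap between the groups and Prf1 did; the adjusted p was 0.197 for each, with log2 fold changes of -2.31 ± 1.07 and -2.62 ± 1.22.

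Nkg7 (chr7:43437073-43438249, plus strand), the most abundant of the 10 per kilobase over all libraries, was not called in any set. It had 1.70, 2.70 and 19.6 CPM in VavCre Arid1b floxed libraries, against 25.7, 27.1 and 7.86 CPM in controls (adjusted p = 0.438). Floxed library 3 of the VavCre Arid2 set had 38.8 CPM, while floxed libraries 1 and 2 had 3.93 and 4.69 CPM and controls 3.65 to 7.33 CPM. The floxed libraries of the set titled A2 had 10.4, 19.6 and 33.5 CPM, against 3.57, 9.31 and 5.73 CPM in controls, without overlap (adjusted p = 0.562).

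The granzymes were not called in the MxCre sets. Gzmb had 2.86, 4.53 and 5.61 CPM in floxed libraries of the set titled A2, against 1.98, 1.75 and 1.35 CPM in controls, a log2 fold change of 1.35 ± 0.76 (adjusted p = 0.559). In the set titled A1b it had 5.19, 6.25 and 1.54 CPM in floxed libraries, against 2.33, 0.557 and 3.57 CPM in controls, with overlap. Gzma there had 2.79, 4.43 and 0.513 CPM in floxed libraries, against 0.388, 0.501 and 1.75 CPM in controls (adjusted p = 0.413).

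The NK receptor genes lie on chromosome 6, Klrb1b at chr6:128813706-128826331 on the minus strand and Klrd1 at chr6:129591782-129598775 on the plus strand. Klrb1b shares exon sequence with Gm44511, an annotated protein-coding gene on the same strand that is not a row of the table, so its counts are uncertain to that extent. Klrb1b in the VavCre Arid1b set had 3.26, 6.55 and 6.55 CPM in floxed libraries 1, 3 and 4, against 0.0539, 0.114 and 0 CPM in control libraries 1, 2 and 3. The floxed libraries held 69, 148 and 109 counts and the controls 1, 2 and 0 (a 0 that allows up to 0.152 CPM), and each floxed library was above every other library of the series, the next being 2.22 CPM. Over the summed counts, 326 in floxed and 3 in control libraries, the ratio was 100 with a 95% counting interval of 34.0 to 489. The fitted log2 fold change was 6.50 ± 1.10 (adjusted p = 0.00533), and its size depends on the prior count at so few control counts.

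Klrb1b was called without each of the 6 libraries of that set in turn (5.97 to 7.42). With a term for Y-positive libraries, a factor estimated from the sets where it varies within a group, the log2 fold change was 5.11 and the call was lost (adjusted p = 0.0600, against 9.7e-07 to 0.0461 over the other settings); Cd28 and Gzmb were also no longer called (adjusted p = 0.133 and 0.217).

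Klrb1b was low in the VavCre Arid2 set, at 0.026 to 0.366 CPM in floxed and 0.142 to 0.365 CPM in control libraries. The set titled A2 had 0.147 to 0.277 CPM in floxed and 0.117 to 0.507 CPM in control libraries. In the set titled A1b it had 0.778, 1.30 and 2.22 CPM in floxed libraries, against 0.310, 0.557 and 0 CPM in controls. The control at 0 allows up to 0.195 CPM. Those groups did not overlap, and the log2 fold change of 2.26 ± 0.90 did not pass the test (adjusted p = 0.209).

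Klrd1 had 3.92, 6.47 and 4.26 CPM in VavCre Arid1b floxed libraries, against 0.323, 0.514 and 1.47 CPM in controls. The groups did not overlap, and the log2 fold change of 2.65 ± 0.86 missed the threshold (adjusted p = 0.0666), while DESeq2 (0.0150), limma voom (0.000174) and the edgeR fit without the 3 libraries that stood apart (0.0114) passed it; over the settings other than leaving out a single library the range was 0.000174 to 0.321. Klrd1 had 0.417 to 0.932 CPM in VavCre Arid2 floxed and 0.177 to 0.652 CPM in control libraries. In the set titled A2 it had 1.11, 2.17 and 7.55 CPM in floxed libraries, against 0.868, 1.84 and 1.05 CPM in controls, and its log2 fold change of 1.51 became 0.39 without floxed library 3.

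Other genes of the NK complex on chromosome 6 were read in the same libraries. Klrb1c, the neighbouring NKR-P1 gene that encodes the NK1.1 antigen, averaged 0.398 CPM in VavCre Arid1b floxed and 0.423 CPM in control libraries. Klre1, beside Klrd1, averaged 0.0643 CPM in floxed and 0.307 CPM in control libraries. Klrk1, which encodes the activating receptor NKG2D, averaged 9.02 CPM in floxed and 2.85 CPM in control libraries.

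**Figure D2:**
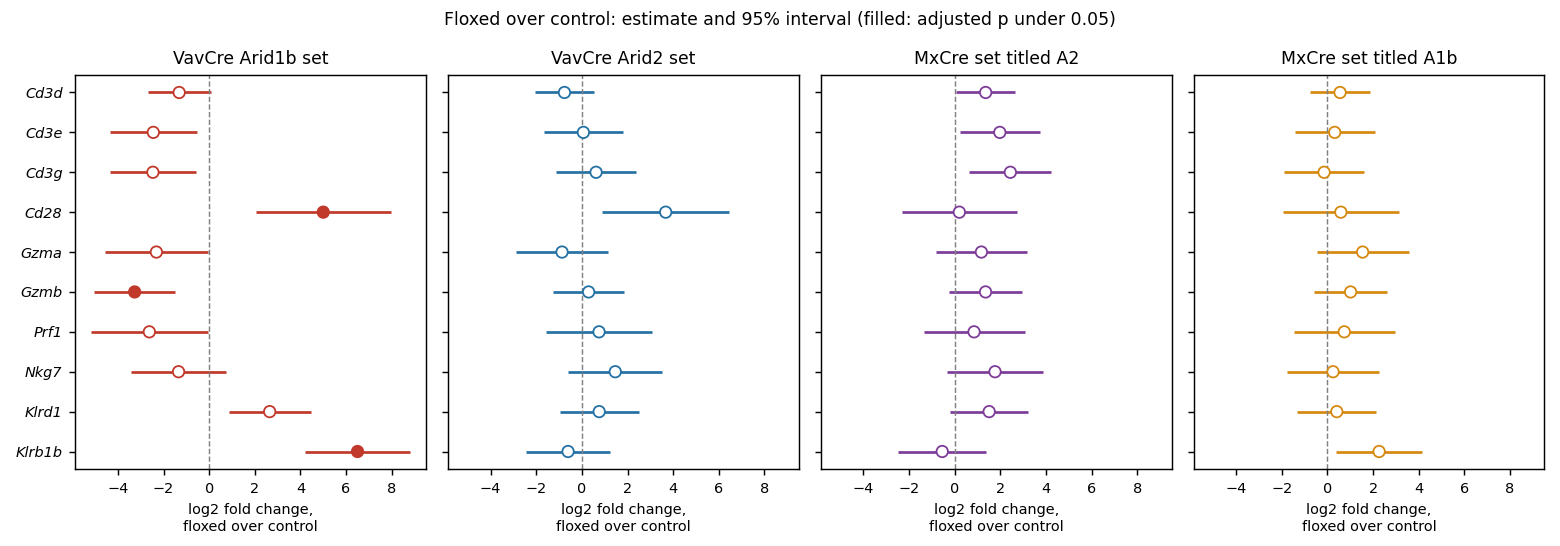
Log2 fold change, floxed over control, of each of the 10 genes in the 4 sets from the edgeR fit; points are estimates, bars 95% intervals, and filled points passed an adjusted p under 0.05. The filled points are Klrb1b, Cd28 and Gzmb in the VavCre Arid1b set.

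Outside the VavCre Arid1b set no member was called by edgeR. For the VavCre Arid2 set 0 of 10 were called (1.31% of all genes), with 1 of 10 at an unadjusted p under 0.05 (19.5% of all genes). DESeq2 and limma voom called 1 and 2 there. In CPM 1 of 10, Cd28, did not overlap between groups (36.1% of all genes). Of the set titled A2 0 of 10 members were called (0.0284% of all genes), and 0 by DESeq2 and by limma voom. The CD3 chains, 3 of 10, had an unadjusted p under 0.05 in edgeR, against 10.6% of all genes. There 4 of 10 had every floxed library above every control (Cd3e, Cd3g, Gzmb, Nkg7), against 7.18% of all genes. Of the log2 fold changes 9 of 10 were positive, against 51.8% of all genes. Among the 10 in the set titled A1b 0 were called (0.00709% of all genes), with 1 at an unadjusted p under 0.05 (17.4% of all genes). Either other tool called 0 there, and 1 of 10, Klrb1b, did not overlap (14.1% of all genes).

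MxCre controls were compared with VavCre controls, a contrast in which Cre driver, pIpC and set cannot be told apart. None of the 10 was called by edgeR or DESeq2 (0.00709% of all genes by edgeR), and limma voom called 2. By edgeR 0 of the 10 had an unadjusted p under 0.05, against 1636 of all 14099 genes. Cd28 averaged 7.56 and 6.40 CPM in the MxCre control groups titled A2 and A1b, against 2.5 and 1.70 CPM in the VavCre Arid1b and Arid2 control groups, a log2 fold change of 1.75 ± 0.88 (adjusted p = 0.455).

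The fold changes themselves were compared between sets, in 6 pairs. Between the VavCre Arid1b set and the set titled A2, the difference was called for 4 of 10 members, where 7.35% of all genes were. It was 7.05 ± 1.42 on the log2 scale for Klrb1b (adjusted p = 0.00938), -4.62 ± 1.13 for Gzmb (0.0229), -4.90 ± 1.24 for Cd3g (0.0254) and -4.42 ± 1.24 for Cd3e (0.0374). In these sets the Y-linked expression also ran opposite ways, and with a term for it none of the 4 was called. Without the 3 libraries that stood apart the differences of Cd3e and Cd3g were -3.23 (adjusted p = 0.117) and -3.96 (0.0627). In the other 5 pairs no member was called. Of all genes, 0.0142% were called in the difference between the VavCre sets, 0.745% between the VavCre Arid1b set and the set titled A1b, 0.489% and 1.5% between the VavCre Arid2 set and the sets titled A2 and A1b, and 0.192% between the MxCre sets. The nearest member was Klrb1b between the VavCre Arid1b and Arid2 sets, at 7.11 ± 1.41 (adjusted p = 0.0722).

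Over the 24 libraries the members fell into sets of correlated genes. On log2(CPM + 0.5), 45 pairs were compared with permutation tests of 100000 draws and Benjamini-Hochberg adjustment. Cd3e and Cd3g had Pearson's r = 0.933 and Spearman's rho = 0.941, both at p = 1e-05, the smallest the permutations can give (adjusted 6.43e-05 and 7.5e-05). The r was 0.881 without the 2 libraries farthest from the median of Cd3e, and 0.880 within groups. Cd3e and Gzmb had r = 0.823 and rho = 0.836 (permutation p = 1e-05 for both, adjusted 6.43e-05 and 7.5e-05), r = 0.816 without the 2 farthest libraries and 0.624 within groups.

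No correlation of Cd28 with Cd3e passed the test. Cd28 and Cd3e had r = -0.328 (permutation p = 0.118, adjusted 0.177) and rho = -0.263 (p = 0.216, adjusted 0.336), with r = -0.518 without the 2 farthest libraries and 0.0955 within groups. Cd28 and Klrd1 had r = 0.692 (permutation p = 0.00023, adjusted 0.00069) and rho = 0.670 (p = 0.00061, adjusted 0.00183), with r = 0.571 without the 2 farthest libraries and 0.709 within groups. Klrd1 and Klrb1b had r = 0.573 (permutation p = 0.00359, adjusted 0.00897), but rho = 0.351 (adjusted 0.197) and r = 0.133 within groups, so the relation did not hold within groups. Group differences enter all of these values except the r within groups, which was computed after centring on group means. The libraries of a group may not be independent.

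**Figure D3:**
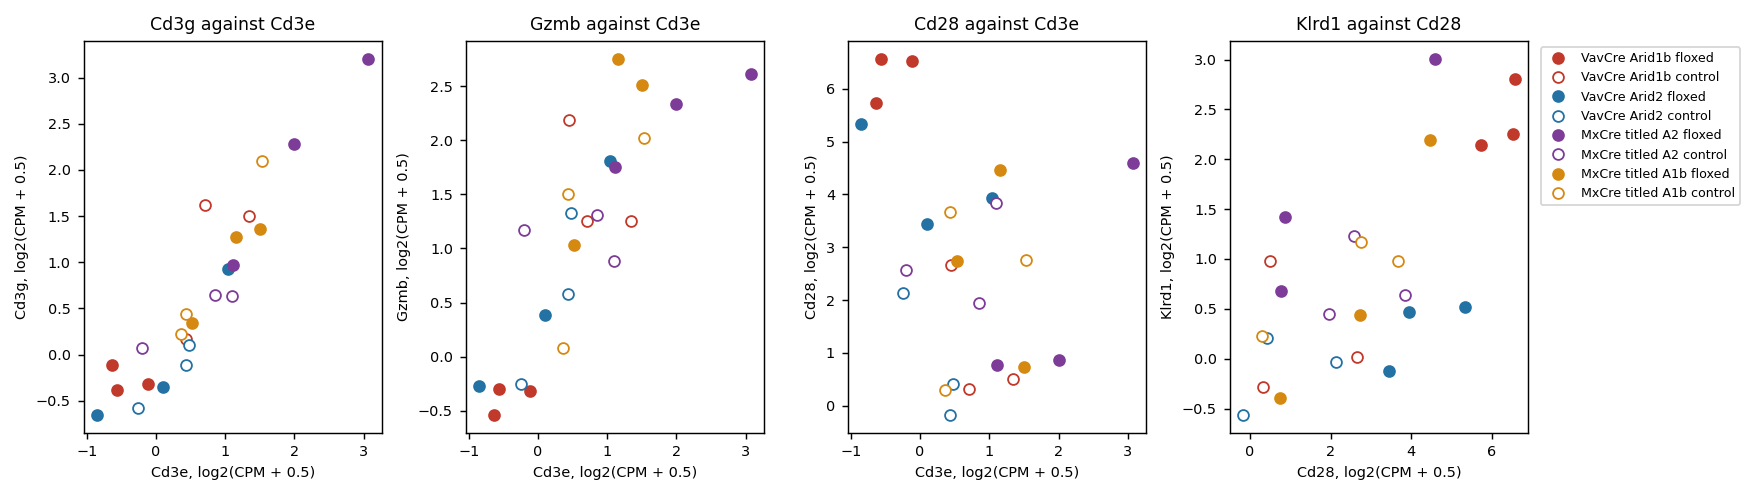
Pairs of members over the 24 libraries, each axis in log2(CPM + 0.5) and each point a library, marked by set and genotype. Cd3e and Cd3g lie along a line (r = 0.933), while Cd3e and Cd28 do not (r = -0.328).

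Over the same libraries, the genes most like each member among 12418 with a mean of at least 1 CPM were ranked by Pearson's r of log2 CPM, as a description. Cd3e was most like Sh2d2a (an adaptor of T cell signalling, r = 0.954), Il2rb (the beta chain of the interleukin 2 and 15 receptors, 0.953) and Cd8a (the killer T cell coreceptor, 0.936). For Cd3g the leading genes were Ccl5 (a chemokine of killer cells, 0.947), Cd8a (0.940) and Sh2d2a (0.933), and for Cd3d they were Ctsw (a protease of killer cells, 0.891), Thy1 (0.886) and Cd3e (0.884). Gzmb was most like Cd3e (0.844), Cd8a (0.820) and Cd3d (0.813).

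The other members had neighbours of other kinds. Cd28 was most like Kmo (an enzyme of tryptophan breakdown, 0.938), Il4i1 (a secreted amino acid oxidase of antigen-presenting cells, 0.938) and Mtmr14 (a lipid phosphatase, 0.937). Klrd1 was most like Fyn (a SRC family kinase, 0.887), Tmem176a (0.825) and Gm15133 (0.804), and Klrb1b like Rnf122 (0.781), Slc25a38 (0.769) and Mir5107 (0.761). Nkg7 was most like Csf3r (the G-CSF receptor, 0.743), Fcgr2b (an inhibitory Fc receptor, 0.729) and Mapk3 (0.694). Gzma and Prf1 averaged under 1 CPM and were not ranked.

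**Figure D4:**
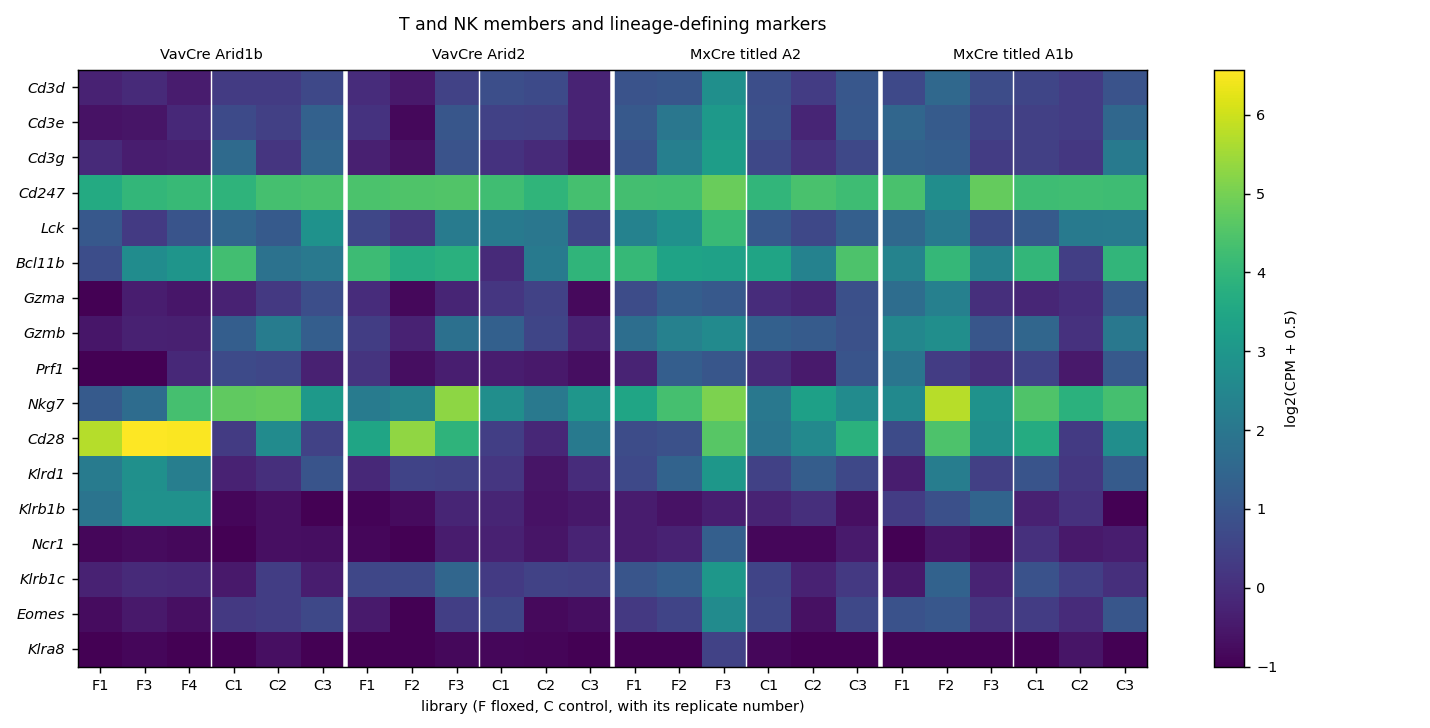
Level of the 10 genes and 7 defining markers of T and NK cells (rows) in each of the 24 libraries (columns; F floxed, C control, with the replicate number), as log2(CPM + 0.5) on 1 colour scale for all genes, not adjusted for gene length. Cd28, Klrd1 and Klrb1b are high in the VavCre Arid1b floxed libraries, where the CD3 chains and Gzmb are low.

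The defining markers of T and NK cells were read in the same libraries. Summed over Cd3d, Cd3e and Cd3g, the level was 0.886 to 0.961 CPM in VavCre Arid1b floxed and 2.23 to 5.43 CPM in control libraries, 0.411 to 3.88 CPM in VavCre Arid2 floxed and 0.849 to 2.71 CPM in control libraries, 4.52 to 23 CPM in floxed and 1.71 to 4.27 CPM in control libraries of the set titled A2, and 2.91 to 6.08 CPM in floxed and 2.23 to 7.59 CPM in control libraries of the set titled A1b. The 4 defining NK markers (Ncr1, Klrb1c, Eomes, Klra8) summed to 0.472 to 0.797 CPM in VavCre Arid1b floxed and 0.915 to 1.83 CPM in control libraries. They summed to 2.46 to 16.1 CPM in floxed and 0.507 to 2.07 CPM in control libraries of the set titled A2. The groups overlapped in the VavCre Arid2 set, at 1.07 to 3.48 CPM in floxed and 1.21 to 2.09 CPM in control libraries, and in the set titled A1b, at 1.03 to 3.82 CPM in floxed and 1.67 to 2.71 CPM in control libraries. In the VavCre Arid1b floxed libraries, where Klrb1b and Cd28 were higher than in any other library, Ncr1 had 1, 2 and 1 counts, and Klra8 had 0, 1 and 0. Their controls were about as low, with 0, 2 and 2 counts of Ncr1 and 0, 2 and 0 of Klra8. Klrb1c had 7, 10 and 7 counts in floxed and 4, 14 and 5 in control libraries. Of the 4, only Eomes did not overlap in CPM, at 0.0945 to 0.221 in floxed and 0.700 to 1.07 in control libraries. In floxed library 3 of the set titled A2, Ncr1 had 28 counts and Klrb1c 109. The part of lymphocytes in these levels was not tested beyond these values.

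Cd247 and Bcl11b, both on the T cell list, were detected in every library. Cd247, the zeta chain of the T cell receptor complex, had 5.99 to 28.3 CPM over the 24 libraries, and Bcl11b, a transcription factor of T cell commitment, 0.443 to 21.3 CPM. In VavCre Arid2 floxed library 2, Cd247 had 794 counts and Bcl11b 450, while Cd3e had 2. The 6 defining T markers were the CD3 chains, Cd247, Lck and Bcl11b. They summed to 15.6 to 26.2 CPM in VavCre Arid1b floxed and 26.9 to 40.3 CPM in control libraries, without overlap. Most of these sums came from Cd247 and Bcl11b, each of which overlapped between the groups. Cd247 had 11.9 to 16.5 CPM in floxed and 14.7 to 20.4 CPM in control libraries. Bcl11b had 1.23 to 7.27 CPM in floxed and 3.09 to 18.8 CPM in control libraries. Floxed and control sums overlapped elsewhere, at 35.2 to 43.9 and 24.6 to 36.8 CPM in the VavCre Arid2 set. They were 44.6 to 78 and 27.9 to 45.7 CPM in the set titled A2, and 32 to 35.7 and 25.5 to 45 CPM in that titled A1b.

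Wider lists of T and NK genes, which leave out the 10 members, were counted in the same way. In the VavCre Arid1b set 0 of 21 tested T lineage genes and 0 of 17 NK lineage genes were called, with 7 and 6 at an unadjusted p under 0.05, 16 and 13 negative log2 fold changes and medians of -1.41 and -1.69. Of all genes tested, 24% had an unadjusted p under 0.05 and 55.1% a negative log2 fold change, with a median of -0.06. Without the 3 libraries that stood apart, 3 of 21 T lineage and 2 of 16 NK lineage genes had an unadjusted p under 0.05 (22.9% of all genes), with medians of -0.99 and -1.55. Summed, the NK lineage list ran the other way, at 182 to 291 CPM in floxed and 47.6 to 103 CPM in control libraries. The T lineage list summed to 99.8 to 135 CPM in floxed and 89.7 to 127 CPM in control libraries, with overlap. The NK gene nearest to the threshold was Cd244, a receptor also found on myeloid cells, at 177 CPM in floxed and 42.6 CPM in control libraries (adjusted p = 0.0503). By mean, Cd244 made up most of the summed NK list in both groups. Klrb1c, the NK gene with the smallest unadjusted p after Cd244, averaged, in the set titled A2, 3.65 CPM in floxed and 0.663 CPM in control libraries (adjusted p = 0.283). Of 11 other genes of the killing machinery, 0 were called in the VavCre Arid1b set (2 at an unadjusted p under 0.05).

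In the VavCre Arid2 set 1 of 21 T lineage genes rose, Icos, at 1.39 CPM in floxed and 0.0748 CPM in control libraries (log2 fold change 4.05 ± 0.97, adjusted p = 0.0468). Of the killing machinery 1 of 11 fell, Srgn, the core protein of granule proteoglycan, at 432 CPM in floxed and 986 CPM in control libraries (-1.19 ± 0.27, adjusted p = 0.0356). Of the NK list 0 of 17 were called (1 at an unadjusted p under 0.05, against 19.5% of all genes). That list summed to 87.8 to 165 CPM in floxed and 33.5 to 53.9 CPM in control libraries, without overlap. Its genes did not rise as a whole, with 11 positive and 6 negative log2 fold changes and a median of 0.40. The T lineage list there summed to 110 to 161 CPM in floxed and 70.3 to 85.1 CPM in control libraries, also without overlap. It had 12 positive and 9 negative log2 fold changes, with a median of 0.07. For the set titled A2, 18 of 21 T lineage and 15 of 17 NK lineage log2 fold changes were positive, with medians of 1.48 and 2.10 and none called (7 and 10 at an unadjusted p under 0.05, against 10.6% of all genes). Without floxed library 3, which stood apart, 17 of 21 and 12 of 17 were positive, the medians were 0.59 and 1.03, and 1 gene of each list had an unadjusted p under 0.05 (16.4% of all genes). The T lineage list summed to 105, 130 and 232 CPM in floxed libraries 1, 2 and 3, against 86.1 to 129 CPM in controls. The NK lineage list summed to 45.8, 72.7 and 240 CPM in floxed libraries, against 81.8 to 107 CPM in controls, so library 3 was above every control and the other two were below. In the set titled A1b none of either list was called (0 and 1 at an unadjusted p under 0.05, against 17.4% of all genes), with medians of -0.18 and -0.38.

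Of the 6 CD28 relatives and ligands, Btla, an inhibitory receptor, rose in the VavCre Arid1b set, at 101 CPM in floxed and 32.1 CPM in control libraries (log2 fold change 1.65 ± 0.45, adjusted p = 0.0348). None of the 6 was called in the other sets. In the VavCre Arid2 set and the sets titled A2 and A1b, 0, 2 and 1 had an unadjusted p under 0.05. The shares of all genes at that level were 19.5%, 10.6% and 17.4%.

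Markers of dendritic cells also rose in the VavCre Arid1b set. Of 13 genes of conventional dendritic cells and MHC class II, 10 rose in floxed leukaemias, and the 13 summed to 2184 to 4171 CPM in floxed and 139 to 620 CPM in control libraries. Cd74, the class II invariant chain, averaged 749 CPM in floxed and 9.37 CPM in control libraries (adjusted p = 0.0166). Clec9a, a receptor for dead cells on dendritic cells, averaged 18.5 CPM in floxed and 0.461 CPM in control libraries (0.0160), the integrin Itgax 78.2 and 7.45 CPM in floxed and control libraries (0.0179), and the transcription factor Batf3 1.87 and 0.0888 CPM in floxed and control libraries (0.0202). Of 8 genes of plasmacytoid dendritic cells 2 rose, Siglech (16.0 CPM in floxed, 0.876 CPM in control libraries, adjusted p = 0.0444) and Spib (6.67 CPM in floxed, 0.655 CPM in control libraries, 0.0396). Without the 3 libraries that stood apart, 8 of the 13 and 0 of the 8 were called. At an unadjusted p under 0.05 were 5 of the 8, against 22.9% of all genes. The same 13 genes in the VavCre Arid2 set summed to 1138 to 1897 CPM in floxed and 269 to 500 CPM in control libraries. None was called by edgeR there, and 2 had an unadjusted p under 0.05 (19.5% of all genes). The list did not rise as a whole there, with 8 positive and 5 negative log2 fold changes and a median of 0.11. The part of these cells in the levels of Cd28 and Klrb1b was not tested.

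The remaining lists gave few calls, and none in the MxCre sets. Of 8 mast cell, basophil and eosinophil genes 1 fell in the VavCre Arid1b set, Prg3 (0.818 CPM in floxed, 125 CPM in control libraries, adjusted p = 0.00909), and 1 of 12 interferon response genes fell, Oas1a (6.17 CPM in floxed, 23 CPM in control libraries, 0.0460). Of 11 B lineage genes in the VavCre Arid2 set 1 fell, Cd79b (2.82 CPM in floxed, 25 CPM in control libraries, 0.0478), and 1 of 12 neutrophil granule genes fell, Mmp9 (8.13 CPM in floxed, 249.96 CPM in control libraries, 0.0192). No erythroid gene of 9 was called in any set; the smallest p was for Alas2 and Slc4a1 in the set titled A2, at 17.3 and 93.0 CPM in floxed and 1.12 and 0.794 CPM in control libraries (adjusted p = 0.310 and 0.340), where all 9 had an unadjusted p under 0.05 and library 3 held most of the signal.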

How the data were processed

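Raw gene counts of 24 poly(A) RNA libraries were used as deposited. Reads were aligned with STAR to mm10, per the submitters' processing notes; the counting tool and strand setting are not stated there, and the library kit is directional, per the labels' protocols. Counts were analysed in R 4.3.3 with edgeR 4.0.16 (TMM factors; genes kept by filterByExpr at a minimum count of 10; 1 quasi-likelihood fit with a mean for each of 8 groups; Benjamini-Hochberg adjustment within each contrast; common biological coefficient of variation 0.4), with DESeq2 1.42.0 and limma 3.58.1 (voom with sample quality weights) as alternatives. The script was tested on simulated counts. The genes changed there had higher fitted counts than most members had in the VavCre Arid1b controls, so that test did not cover low counts. Total counts ranged over 12069153 to 38315410 per library. Intervals and floors of 3 counts cover counting error only.

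The named genes are the 10 members, the called genes of each marker list (at most 4, by p; otherwise at most 2 with the smallest p) and the 3 genes most like each member of at least 1 CPM. Ctla4, Raph1, Klre1, Klrk1, Cd247, Lck, Bcl11b, Ncr1, Eomes and Klra8 are neighbours or defining markers. Members and lists were chosen with earlier results of these data known. The alternatives were other size factors, no filter, the libraries compared alone, leaving out 3 libraries that stood apart, a term for Y-positive libraries, a replicate block, and leaving out each library.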

Additional observations from a re-analysis of the deposited data

Results flagged for a closer look

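The floxed-over-control log2 fold changes of 4 genes differed between the VavCre Arid1b set and the MxCre set titled A2 by the edgeR quasi-likelihood test of the difference. The difference, VavCre Arid1b set minus the set titled A2, was -4.42 ± 1.24 for Cd3e (adjusted p = 0.0374) and -4.90 ± 1.24 for Cd3g (0.0254). It was -4.62 ± 1.13 for Gzmb (0.0229) and 7.05 ± 1.42 for Klrb1b (0.00938). For Cd3e, Cd3g and Gzmb, every floxed library was below every control in the VavCre Arid1b set and above every control in the set titled A2.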

How the results depend on the processing

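In the VavCre Arid1b set the count of members called, 3, was 5 with DESeq2, 6 with limma voom, 0 with the Y-positive term and 1 to 2 without each library in turn. Of all genes, 926 of 14099 were called with all libraries, and 62 to 734 without each library in turn. In the VavCre Arid2 set the count of 0 was 1 with DESeq2, 2 with voom and 1 without the 3 libraries that stood apart (1144 of all 14326 genes), and between MxCre and VavCre controls voom gave 2. For DESeq2, voom, the Y-positive term and the replicate block no share of all genes is given, here, above or below. Those member counts therefore cannot be set against all genes. The 4 members called in differences between sets were 8 with voom, 0 with the Y-positive term and 1 to 4 without each library in turn.

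Same-numbered libraries showed little shared deviation (r over 0.1 in 2 of 11 pairs, range -0.217 to 0.259), and the main fit was unpaired. With 3 libraries a group, whose deviations sum to 0, this check cannot exclude pairing. With the replicate block the VavCre Arid1b count was 1 (Klrb1b) and the count for differences 2. Log2 fold changes whose sign turned with the block were Cd3e in the VavCre Arid2 set (-0.45), Cd28 in the sets titled A2 (-0.061) and A1b (-0.14) and Cd3g in the set titled A1b (0.25).

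Other log2 fold changes that turned, none of them called, were these. With voom they were Cd3e (-0.84), Cd3g (-0.44) and Gzmb (-0.47) in the VavCre Arid2 set, Cd28 in the set titled A2 (-2.0), and Cd28 (-0.77), Prf1 (-0.077), Nkg7 (-1.18) and Klrd1 (-0.87) in the set titled A1b. Without the 3 libraries they were Cd28 in the set titled A2 (-2.56) and Cd28 (-0.80), Nkg7 (-1.57) and Klrd1 (-1.22) in the set titled A1b. With the Y-positive term they were Cd28 (-0.95), Prf1 (-0.53) and Klrb1b (0.84) in the set titled A2 and Nkg7 (-0.76) in the set titled A1b.

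Leaving out each library in turn gave ranges across 0 in the VavCre Arid2 set for Cd3e (-1.12 to 0.62), Cd3g (-0.86 to 1.09), Gzmb (-0.97 to 1.04), Prf1 (-0.013 to 1.17) and Nkg7 (-0.41 to 1.92), in the set titled A2 for Cd28 (-2.56 to 0.97), and in the set titled A1b for Cd3e (-0.0092 to 1.04), Cd3g (-0.54 to 1.06), Cd28 (-0.82 to 1.46), Prf1 (-0.54 to 1.46), Nkg7 (-1.59 to 0.70) and Klrd1 (-1.24 to 0.93). The cause was not tested. CPM on total counts differed from TMM-scaled CPM by a ratio of 0.959 to 1.13. Counts under 10 limit the precision for Cd3e, Cd3g, Gzma, Prf1 and Klrb1b, and in fewer libraries for Cd3d, Gzmb and Klrd1. For Gzmb these were the VavCre Arid1b floxed libraries, on which its call rests.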

Other observations

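No interferon response gene was called in the MxCre sets. In the set titled A2 all 12 log2 fold changes were positive (median 2.35). By edgeR 8 had an unadjusted p under 0.05, against 10.6% of all genes. The genes summed to 185, 238 and 808 CPM in floxed libraries 1, 2 and 3, against 196 to 261 CPM in controls. Floxed library 3 was thus the one above every control. Without it 5 of 12 were positive (median -0.062), with 2 at an unadjusted p under 0.05 (16.4% of all genes). In the set titled A1b 0 of 12 were positive (median -1.09), with 1 at an unadjusted p under 0.05 (17.4% of all genes). The genes summed there to 166 to 344 CPM in floxed and 315 to 368 CPM in control libraries. No difference between the sets was tested for these genes as a list.

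B lineage genes were low in the VavCre Arid2 floxed libraries. All 11 tested had negative log2 fold changes (median -1.79), against 49.5% of all genes. Of the 11, 6 had an unadjusted p under 0.05 (19.5% of all genes), and of these Cd79b was called. The listed genes summed to 3.48 to 6.59 CPM in floxed and 28.3 to 34.9 CPM in control libraries of that set, without overlap.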
